A study of Mus musculus with 2 samples.

Results

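The mesothelial-type genes described here are 9 genes, Upk3b, Upk1b, Wt1, Msln, Lrrn4, Gpm6a, Calb2, Prg4 and Efemp1, of 19937 genes measured. Each was read from the probe set annotated with its symbol alone, and each had 1 such probe set. They were measured on microarrays of RNA from sorted medullary thymic epithelial cells (mTEC) of B6 mice aged 6 weeks. The group labelled WT carried floxed Hdac3 alleles (HDAC3fl/fl) and no Cre, and the group labelled HDAC3cKO carried the same alleles with Foxn1-Cre, in which Cre follows Foxn1, a gene of thymic epithelial cells of cortex and medulla. The sort took EpCAM-positive, CD45-negative cells with low Ly51 and low MHC class II, and about 30000 cells were pooled per extraction, from typically 10 to 30 mice in the HDAC3cKO group. Each genotype had 1 array, so there is no replicate check and no test, and "higher" and "lower" describe these 2 arrays. The 9 genes were chosen with their values on these arrays known, so their differences are a description.

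Mesothelium is the flat epithelium that lines the pleural, pericardial and peritoneal cavities and covers the organs within them. Its cells carry keratins like other epithelia, and also express genes usually found in mesenchyme, among them the transcription factor Wt1. The pleura and pericardium lie close to the thymus in the chest. Most of the 9 genes are also known from other tissues: Wt1 is also a gene of kidney podocytes, Upk1b of urothelium, Gpm6a and Calb2 of neurons, Prg4 of joint lining, and Efemp1 of fibroblasts.

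The labels were checked first. Hdac3, the targeted gene, went from 10.90 on the array labelled WT to 11.64 on the one labelled HDAC3cKO, as log2 levels, so it was 1.67-fold higher where it should be deleted. The exons under its probe set and in the floxed region were not known here, so this value does not check the deletion, and every direction below rests on the labels. Epcam, the epithelial surface protein of the gate, was at 11.33 and 11.06, and Foxn1, named after its value was seen, at 9.68 and 9.81, each in the order WT and HDAC3cKO. Ptprc, which encodes the excluded antigen CD45, was at 9.63 and 8.79. Over all genes the median difference (log2 level on the array labelled HDAC3cKO minus that on the array labelled WT) was 0.01, and the central 95% lay between -1.72 and 1.07.

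On the array labelled HDAC3cKO, 6 of the 9 genes were at least 2-fold higher and 0 were 2-fold lower, beside a background over all genes of 2.97% higher and 5.88% lower by that fold. Because the genes were chosen from this contrast, nothing is read from that share. The 6 differences ran from 1.95 to 3.04, that is 3.86-fold to 8.21-fold, and the other 3 from -0.41 to 0.08. Those 3, Msln, Calb2 and Prg4, include the classical mesothelial markers mesothelin (Msln) and calretinin (Calb2), the latter at a low signal on both arrays. The median over all 9 was 2.06. In pooled RNA, more cells of a type and more RNA per cell cannot be told apart.

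**Figure D1:**
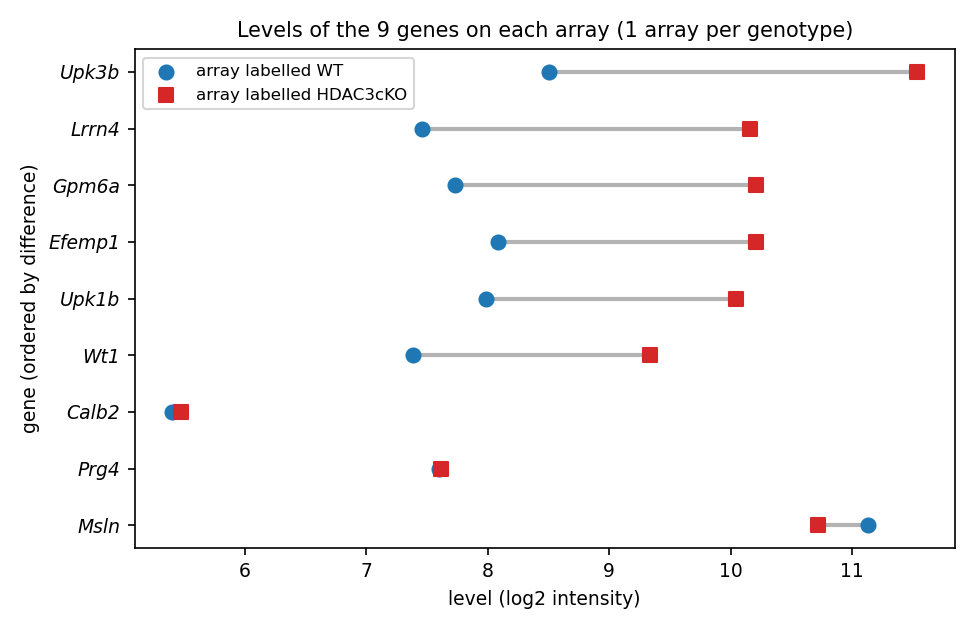
Log2 intensity of each of the 9 genes on the array labelled WT (circles) and the one labelled HDAC3cKO (squares), 1 array per genotype, ordered by the difference; grey lines join the arrays. Upk3b, Lrrn4, Gpm6a, Efemp1, Upk1b and Wt1 are higher on the array labelled HDAC3cKO, and the points of Calb2 and Prg4 nearly coincide.

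The RefSeq promoter table (GRCm38.p6) held windows for 4 of the 9 genes, Upk3b, Lrrn4, Gpm6a and Efemp1, all among the 6 that were higher. The 250 bases before each annotated start are printed below, 5′ to 3′ on the gene's strand, because these genes were higher together. Capitals mark a match on either strand to GCGNGGGCG (the EGR and WT1 type), GGAATG (the TEAD type), TATAAA (the TATA box) or GGGCGG (the SP and KLF type).
Upk3b, chr5:136038246-136038495, + strand: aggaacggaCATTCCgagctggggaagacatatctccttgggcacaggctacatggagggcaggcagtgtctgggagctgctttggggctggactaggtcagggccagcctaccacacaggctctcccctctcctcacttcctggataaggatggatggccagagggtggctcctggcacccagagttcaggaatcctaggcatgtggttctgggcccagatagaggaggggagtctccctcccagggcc
Lrrn4, chr2:132880863-132881112, - strand: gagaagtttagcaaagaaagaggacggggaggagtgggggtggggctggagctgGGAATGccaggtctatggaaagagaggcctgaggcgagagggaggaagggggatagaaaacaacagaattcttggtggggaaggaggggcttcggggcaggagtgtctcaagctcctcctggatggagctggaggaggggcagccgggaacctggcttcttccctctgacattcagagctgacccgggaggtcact
Gpm6a (upstream window), chr8:54779184-54779433, + strand: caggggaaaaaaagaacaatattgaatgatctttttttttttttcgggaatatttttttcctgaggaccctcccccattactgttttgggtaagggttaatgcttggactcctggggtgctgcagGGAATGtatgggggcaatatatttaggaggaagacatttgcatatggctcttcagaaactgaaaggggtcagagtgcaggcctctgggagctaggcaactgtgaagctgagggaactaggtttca
Efemp1, chr11:28852955-28853204, + strand: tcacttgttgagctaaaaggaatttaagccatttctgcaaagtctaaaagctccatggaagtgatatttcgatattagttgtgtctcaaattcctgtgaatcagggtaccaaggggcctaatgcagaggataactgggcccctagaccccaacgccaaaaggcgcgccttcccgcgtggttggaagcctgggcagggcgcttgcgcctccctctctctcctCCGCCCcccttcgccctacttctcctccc

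The letters GGAATG lay in 3 of the 5 windows of these genes, beginning in Upk3b at 241, Lrrn4 at 196 and the printed Gpm6a window at 125 bases before the start, and in 12.6% of all 32851 windows of this length. GGGCGG lay in 1 of 5, in Efemp1 at 29 bases before the start, against 32.7% of all windows. TATAAA lay only in the other Gpm6a window (chr8:54954478-54954727, + strand, not printed), at 211 bases before the start, against 12.4%. GCGNGGGCG lay in 0 of 5 windows and in 4.70% of all. Each of the 5 windows held 1 match in all, so no matches overlap. The windows differed in base composition. That of Upk3b was 60.8% G and C with 2 CpG pairs, that of Efemp1 53.6% with 10 CpG pairs and the printed Gpm6a window 44.4% with 1, where the median over all windows was 52.4% and 6 CpG pairs. A match is a description of letters, not of binding.

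The uroplakins came first. They are membrane proteins best known from the plaques of the bladder surface, where a tetraspanin uroplakin pairs with a partner of the uroplakin 2 or 3 type. Upk3b, which is also a marker of mesothelium, went from an intensity of 362 on the array labelled WT to 2976 on the one labelled HDAC3cKO, log2 levels of 8.50 and 11.54. It was 8.21-fold higher, the largest difference of the 9 genes and rank 8 of 19937 by difference. Upk1b, the tetraspanin that pairs with uroplakins of the Upk3 type, had an intensity of 253 and 1059, log2 levels of 7.98 and 10.05. It was 4.18-fold higher, at rank 73. Of the other uroplakins of bladder, Upk1a differed by -0.07 and Upk2 by 0.09. Upk3a, the closest bladder counterpart of Upk3b, differed by -0.66, from 7.87 to 7.21, and Upk3bl, which lies beside Upk3b in the genome, by -0.32, both named after their values were seen. The uroplakins that were higher were the pair among the 9 genes. Those were chosen with their values known, so nothing is read from the contrast with the other uroplakins. No uroplakin of the list was at least 2-fold lower. Upk1a, Upk3a and Upk3bl had means over both arrays below the median of all genes, so their values cannot be read as lack of change.

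Wt1 encodes the zinc finger transcription factor of mesothelium, gonad and kidney. Its intensity went from 167 on the array labelled WT to 646 on the one labelled HDAC3cKO, log2 levels of 7.39 and 9.34. It was 3.86-fold higher, the smallest of the 6 large differences, at rank 80. Of its known protein partners, Basp1, a corepressor that binds WT1, went the other way, from 10.59 to 9.45 or 2.21-fold lower. Wtap, a splicing and RNA methylation factor named for its binding to WT1, differed by -0.12.

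Lrrn4, Gpm6a and Msln encode proteins of the cell surface. Lrrn4, a leucine-rich repeat protein used as a surface marker of mesothelium, went from an intensity of 176 on the array labelled WT to 1142 on the one labelled HDAC3cKO, log2 levels of 7.46 and 10.16. It was 6.51-fold higher, at rank 19. Gpm6a, a membrane glycoprotein of the proteolipid family, had an intensity of 213 and 1183, log2 levels of 7.73 and 10.21, and was 5.56-fold higher, at rank 29. After Upk3b these were the largest differences of the 9 genes. Msln, which encodes mesothelin, a lipid-anchored glycoprotein, went from an intensity of 2243 on the array labelled WT to 1684 on the one labelled HDAC3cKO. Its log2 levels were 11.13 and 10.72, a difference of -0.41 or 1.33-fold lower, at rank 16832. It was the only one of the 9 with a negative difference. Its binding partner Muc16, the mucin that carries the CA125 antigen, was 5.20-fold higher, from 5.83 to 8.21. The mean of Muc16 over both arrays, 7.02, was below the median of all genes, so its fold starts from a low value.

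Relatives of the surface genes went in different directions. Gpm6b, the close relative of Gpm6a, was 2.64-fold higher, from 8.75 to 10.15. Lrrn1, of the Lrrn4 family, was 4.22-fold lower, from 9.30 to 7.22, and Lrrn2 differed by -0.16. Lrrn3, named after its value was seen, differed by -0.78. Lrrn2 and Lrrn3 had means over both arrays below the median of all genes, so their values carry a caution for low level. Lrrn4 and Gpm6a were chosen with their values known, so nothing is read from the contrast with these relatives.

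Calb2, Prg4 and Efemp1 encode a cytoplasmic and a pair of secreted proteins. Calb2, the calcium-binding protein calretinin that pathologists stain for in mesothelial tumours, went from an intensity of 42.2 on the array labelled WT to 44.6 on the one labelled HDAC3cKO. Its difference was 0.08. S100g, another calcium-binding protein, was 2.62-fold lower, from 8.12 to 6.73. Calb1, a relative named after its value was seen, differed by -0.74. S100g and Calb1 both had means over both arrays below the median of all genes. Prg4, or lubricin, the lubricant of joint and serosal surfaces, had an intensity of 194 and 196, with a difference of 0.02. Calb2 and Prg4 were the 2 of the 9 genes with a mean over both arrays below the median of all genes, a log2 level of 8.03, and the table has no detection calls, so neither value can be read as absence or as lack of change. On the array labelled WT alone, 4 of the 6 higher genes, Wt1, Lrrn4, Gpm6a and Upk1b, were also below a level of 8.03 and passed it in the mean through the other array. Their folds start from low values and carry the same caution.

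Efemp1, which encodes fibulin-3 of the extracellular matrix, went from an intensity of 272 on the array labelled WT to 1184 on the one labelled HDAC3cKO, log2 levels of 8.09 and 10.21. It was 4.36-fold higher, at rank 60. Other fibulins were also higher: Fbln7 was 2.48-fold, Fbln1 2.33-fold and Fbln2 2.30-fold higher, the latter pair being fibroblast markers as well, and Fbln5, named after its value was seen, differed by 0.96. The receptor Egfr, which fibulin-3 can bind, was 2.35-fold higher, from 10.58 to 11.81, and the protease inhibitor Timp3, another binding partner, differed by 0.63. Cd44, a receptor for lubricin, differed by -0.35. Of the 14 measured genes listed as relatives of the 9 genes, 4 were higher by 2-fold or more (Gpm6b and the 3 fibulins). Another 2 were lower by that fold and 8 differed less, with a median of -0.11. Only 7 of the 14 had a mean level at or above the median gene. Over all genes, 2.97% were higher and 5.88% lower by 2-fold or more. Of 7 measured binding partners, 2, Muc16 and Egfr, were higher by 2-fold or more and 1, Basp1, lower, with a median of -0.07. The genes of the partner list were named after their values were seen.

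**Figure D2:**
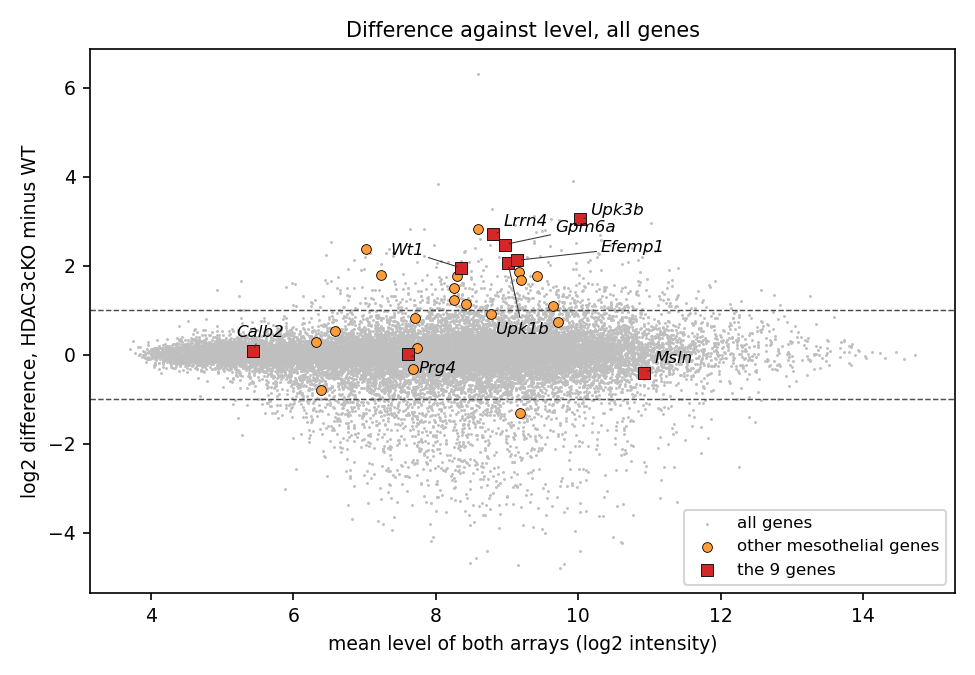
Log2 difference (HDAC3cKO minus WT) against the mean log2 intensity of both arrays, for all 19937 genes (grey), the 9 genes (squares) and 20 other mesothelial genes (circles); dashed lines mark 2-fold. The 6 higher genes lie between 1.95 and 3.04, and Calb2, Prg4 and Msln lie between the dashed lines.

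By size of difference the genes most like Upk3b among those at or above the median level were Dmrta1, Ccl2, BC023105, Trpm3 and Ndrg2. Their differences lay within 0.0058 to 0.087 of that of Upk3b on the log2 scale. Likeness here is over 2 arrays only.

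Genes of mesothelium outside the 9 were read from a list of 20, all measured. On the array labelled HDAC3cKO, 11 of them were 2-fold higher or more, 1 was 2-fold lower or more and 8 differed less, beside 2.97% and 5.88% of all genes. The median was 1.12, against 0.01 over all genes, and 17 of the 20 were above 0. Of the 20, 12 had a mean level no lower than the median gene. That mean takes in the array on which most of them were higher. On the array labelled WT alone, 7 of the 20 were at or above its median level. Of those 7, 4 were at least 2-fold higher and 1 was lower by that fold. Folds that start below that level carry the caution given for the 9 genes. Among the higher genes these are the folds of Pkhd1l1, Muc16, Aldh1a2, Aldh1a1, Rspo1, Myrf and Bnc1. The list was written with earlier results of these data known. Several of its genes are also expressed elsewhere, Podxl in endothelium and Aldh1a2, Tcf21, Tbx18 and Bnc2 in mesenchyme.

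Surface and junction genes of this list included those with the largest differences. Pkhd1l1, a large membrane protein related to fibrocystin, went from 7.19 on the array labelled WT to 10.01 on the one labelled HDAC3cKO, 7.06-fold higher. Cldn15, a claudin of tight junctions, went from 8.25 to 10.10, 3.62-fold higher, and Nkain4, which interacts with the sodium pump, from 8.54 to 10.30, 3.39-fold higher. Podxl, the sialomucin podocalyxin, went from 9.10 to 10.20, 2.15-fold higher. With Muc16 these were 5 surface or junction genes with a higher level on the array labelled HDAC3cKO.

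Enzymes of retinoic acid synthesis, of which Aldh1a2 is a gene of embryonic mesothelium, were also higher. Aldh1a2 went from 6.34 on the array labelled WT to 8.13 on the one labelled HDAC3cKO, 3.46-fold higher. Its mean over both arrays, 7.24, was below the median of all genes, so its fold starts from a low value. Aldh1a1, whose probe set may also read its close copy Aldh1a7 and is uncertain for that reason, was at 7.41 and 9.19, 3.43-fold higher. Rspo1, a secreted enhancer of Wnt signalling, was at 7.52 and 9.01, 2.82-fold higher. All 3 were higher by less than the 3.86-fold of Wt1.

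Among transcription factors the zinc finger gene Gata6 was 3.19-fold higher, from 8.36 to 10.04. The membrane-anchored factor Myrf was 2.33-fold higher, from 7.64 to 8.86, and basonuclin, Bnc1, 2.19-fold higher, from an intensity of 233 to 510. Other factors of the list differed less, Gata4 by 0.16 and Tcf21, a gene of epicardium and fibroblasts, by 0.29. Bnc2 and Tbx18, named after their values were seen, differed by 0.82 and 0.54. The growth factor gene Fgf9 differed by -0.31. Gata4, Tcf21, Bnc2, Tbx18 and Fgf9 each had a mean over both arrays below the median of all genes. Their values cannot be read as lack of change. Anxa8, an annexin, was the gene that was lower, from 9.85 to 8.53 or 2.49-fold.

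**Figure D3:**
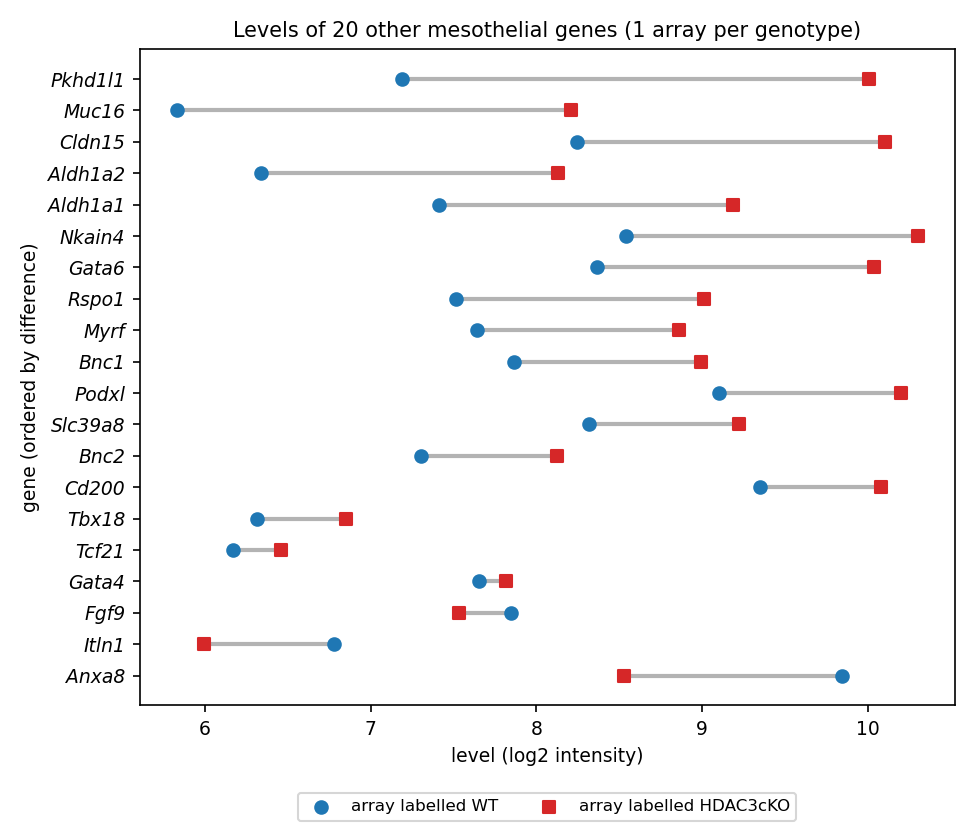
Log2 intensity of 20 other mesothelial genes on the array labelled WT (circles) and the one labelled HDAC3cKO (squares), 1 array per genotype, ordered by difference. Of the 20 genes 17 lie to the right on the array labelled HDAC3cKO, from Pkhd1l1 with the largest difference, and Anxa8, in the bottom line, has the largest shift to the left.

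Genes that mesothelium shares with other epithelia had no common direction. Among 11 measured, 2 were higher and 2 lower by 2-fold or more, beside 2.97% and 5.88% of all genes. The median was 0.21 and the mean -0.03. Podoplanin, Pdpn, was 2.74-fold higher, and Cdh2, which encodes the N-cadherin that mesothelial cells carry, was 7.70-fold lower, from 11.21 to 8.27. Bcam, a laminin receptor, was 2.19-fold higher and Krt7, a keratin of simple epithelia, 2.03-fold lower, both named after their values were seen. The sign of this list thus rests on which summary is taken.

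Markers of other cell types on the same arrays stood beside these values. Each count of markers past 2-fold is to be set beside the 2.97% of all genes that were higher and 5.88% that were lower. The 12 endothelial markers all differed by more than 0, 8 of them by 2-fold or more, and their median was 1.06, the summed intensity going from 8934 on the array labelled WT to 19163 on the one labelled HDAC3cKO. The differences of Emcn, a sialomucin, and Kdr, a VEGF receptor, were 2.20 and 1.34. Among 15 markers of fibroblasts, 6 were higher by 2-fold or more and 0 lower by that fold. Their median was 0.65, with a summed intensity from 12392 to 22796. Mfap5 and Mgp, of the matrix, were 5.28-fold and 2.87-fold higher, while 4 of the 15 differed by less than 0, Postn by -0.78, Col6a1 by -0.69, Pdgfra by -0.52 and Lum by -0.15. Much of the summed intensity was that of Dcn, which went from 3667 to 10000. These 5 genes were named after their values were seen. For the 9 genes the summed intensity went from 3922 to 10114, of which Msln, with a negative difference, was 2243 and 1684. The part of these cell types in the levels of the 9 genes was not tested.

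Among 9 markers of pericytes and smooth muscle, 1 was higher and 1 lower by 2-fold or more. The median was -0.46, with a summed intensity from 17046 to 10618. The filament gene Des was 3.19-fold lower and Mylk, a myosin kinase, 2.11-fold higher. Macrophage and dendritic cell markers differed by less than 0 in 10 of 10 cases, 5 of them lower by 2-fold or more. Their median was -1.03, with a summed intensity from 17333 to 6950, and the largest differences were Laptm5 at 4.24-fold and Ctss at 3.44-fold. Among 7 markers of thymocytes, 1 was lower by 2-fold or more. The median was -0.78, with a summed intensity from 3665 to 2607. Cd4 was 2.39-fold lower and Cd8a 1.97-fold lower. Among 5 markers of B cells, 1, Cd79b, was 3.40-fold lower, Cd79a was 1.36-fold lower, and the median was -0.32 with a summed intensity from 1308 to 640. Much of that sum was Cd79b, which went from 893 to 263. Only 1 of the 5, Cd79b, had a mean level at or above the median gene.

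Among 3 parathyroid markers, 1, the calcium sensor Casr, was 3.24-fold lower, Chga was 1.28-fold lower, and the median was -0.36 with a summed intensity from 20503 to 18931. None of 6 adipocyte markers differed by 2-fold, with a median of -0.01 and a summed intensity from 3922 to 5822. Fabp4, which endothelium also expresses, differed by 0.66 and Pparg by 0.53. These were the 2 of the 6 with a mean level at or above the median gene. The values of the other adipocyte markers cannot be read as lack of change. Among 12 markers of thymic epithelium, 3 were higher and 3 lower by 2-fold or more. The median was 0.15, with a summed intensity from 26827 to 28405. The cortical proteasome gene Psmb11 was 2.90-fold higher and Cldn3 2.62-fold lower. No marker stood at 0, since every probe set of an array has a value.

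**Figure D4:**
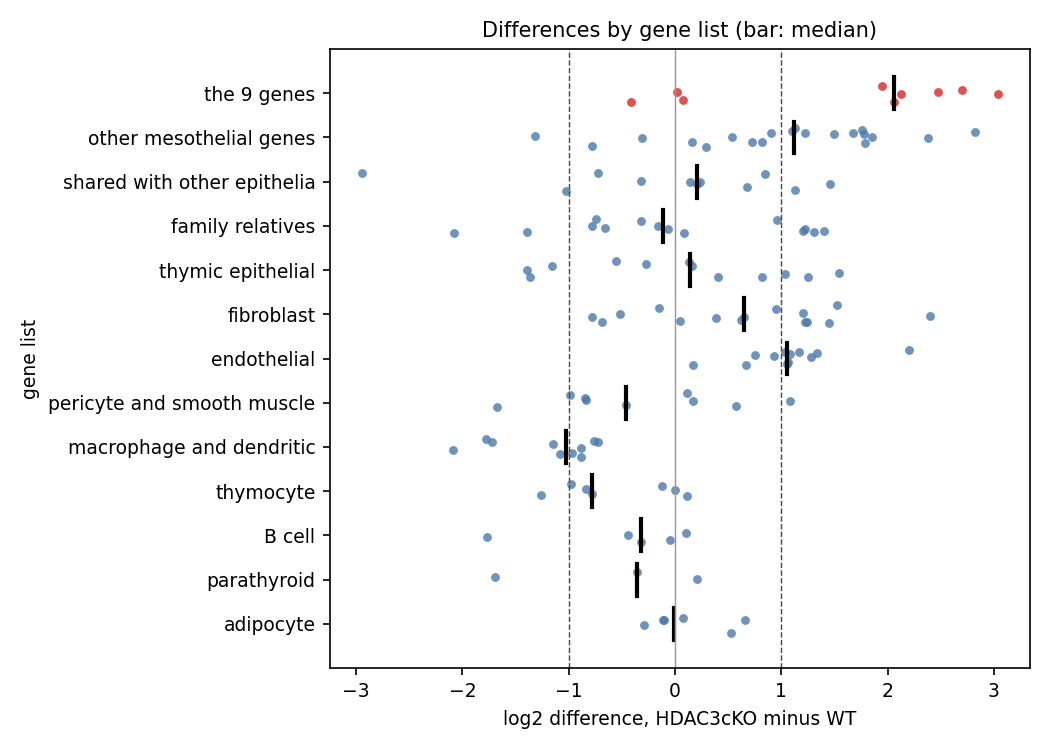
Log2 difference (HDAC3cKO minus WT) of each gene by list, the 9 genes in red, with the median of each list as a black bar and dashed lines at 2-fold. The medians are 2.06 for the 9 genes, 1.12 for the other mesothelial genes, 1.06 for endothelial markers and -1.03 for macrophage and dendritic cell markers.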

How the data were processed

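RNA of 1 sample per genotype was amplified and hybridized to Affymetrix Mouse Gene ST arrays, per the labels. The deposited intensity values, 1 for each probe set on each array, are linear and were made with RMA (background correction, normalization and probe set summary) per the submitters' processing notes. For RMA, version and settings: not given in the sources used here. Intensities were transformed to log2 with no offset. Of 34760 probe sets, 21640 had 1 gene symbol in the platform annotation, 1321 had several and 11799 none. Symbols followed the RefSeq gene table, and the probe set with the highest mean was used for the 954 genes with more than 1. A probe set value near background understates a difference. Genes past 2-fold were counted over 19937 genes, without a test.

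The 9 genes and all lists were chosen with earlier results of these data known. Of 144 listed genes, 136 were measured, and the others were not analysed here. The text names every one of the 9 genes, the mesothelial and family genes past 2-fold with 3 others each of the smallest difference, up to 2 genes per marker list of the largest difference, the 5 genes nearest to Upk3b, and Hdac3, Epcam and Ptprc. Other genes were named after their values were seen. Counts and scalings were tested on simulated data. Tables were handled in pandas 2.3.3 and numpy 2.4.6 under Python 3.11.15, the loess curve came from statsmodels 0.14.6, and plots from matplotlib 3.10.9.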

Additional observations from a re-analysis of the deposited data

How the results depend on the processing

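Under 6 alternatives of scaling, offset and probe set choice, each of the 9 genes kept its sign and its side of 2-fold. Each of them has 1 probe set, so the alternatives of probe set choice could not change its value. The difference of Upk3b ran from 2.88 to 3.09, Lrrn4 from 2.40 to 2.75, Gpm6a from 2.23 to 2.53, Efemp1 from 1.94 to 2.17, Upk1b from 1.87 to 2.11, Wt1 from 1.68 to 2.00, Calb2 from 0.03 to 0.13, Prg4 from 0.01 to 0.07 and Msln from -0.49 to -0.36. Each lowest value of the 6 higher genes came from an offset of 50 intensity units before log2. With a threshold of 1.5-fold, 1661 of all genes were higher and 2238 lower, and 2 of the other mesothelial genes were lower. At 3-fold, 151 of all genes were higher and 575 lower, and 7 of the other mesothelial genes were higher and 0 lower, while 6 of the 9 genes were higher at either threshold. With only genes whose mean was at or above the median, 673 of the 9969 genes left were lower and 453 higher. A further count took only genes whose level on the array labelled WT was at or above its median. It left 3 of the 9 genes, 2 of them higher, and 7 other mesothelial genes, 4 of them higher. Of all genes it also left 9969, with 341 higher and 918 lower. That filter removes genes with a low level on the array labelled WT, among them 4 of the 6 higher genes. All other counts stayed within 1.5 times the reported count. No paired analysis was possible because each genotype has 1 array, and no replicate could be left out. The background correction could not be changed, as the deposited values are already corrected.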

Other observations

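Genes that neighbour the 9 genes in the order of protein-coding genes of the RefSeq table (GRCm38.p6) were read as well, a comparison chosen after the data were seen. Over all genes, 2.97% were at least 2-fold higher and 5.88% lower, so most genes differ by less. Of 15 measured neighbours, 14 differed by less than 2-fold and 1 was at least 2-fold higher. That gene was B4galt4, a galactosyltransferase beside Upk1b, which went from 8.22 on the array labelled WT to 9.36 on the array labelled HDAC3cKO or 2.20-fold. Of the 11 measured neighbours of the 6 higher genes, 10 differed by less than 2-fold. Nothing is read from these counts, since most of all genes also differ by less than 2-fold. Dtx2, on the side of Upk3b away from Upk3bl, differed by -0.13, Crls1 and Fermt1 beside Lrrn4 by 0.61 and 0.24, Ccdc85a and Pnpt1 beside Efemp1 by 0.75 and 0.24, and Eif3m beside Wt1 by 0.48. Mslnl, a relative of Msln that lies beside it, differed by -0.16.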
